A study of Caenorhabditis elegans with 59 samples.

Results

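The comparison described here is that of mir-43(M2) L4 larvae with wild-type L4 larvae, both with intact ebax-1, in small-RNA sequencing of C. elegans. It rests on 6 of the 59 libraries of the series, 3 from each strain, and on 219 of the 304 miRNA strands that the table of this experiment holds once the forms of miR-43 are combined. Members were chosen by their labels and by a minimum level: a strand was kept when it averaged at least 5 CPM (miRNA counts scaled to a common library total of 1000000) over the 6 libraries. Of the remaining strands, 80 were counted but lay below the minimum and 5 had no count in these libraries. The strands nearest the minimum were mir-1822* at 5.04 CPM inside it and mir-1819* just under 5 CPM outside it.

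Wild type was the N2 strain. In mir-43(M2), a line made by Cas9 cutting with 2 guide RNAs and a double-stranded repair template, nucleotides 9 to 23 of the endogenous miR-43 were replaced by random sequence, and the passenger strand was changed to restore pairing, so that the seed was kept. The line was isolated in a dpy-10 background and backcrossed to N2, and it is 1 line, so other differences of that line cannot be told apart from those of the substitution. Whole animals of both strains were grown at 20 °C and collected about 42 h after starved L1 larvae were plated on E. coli OP50. The same experiment holds mir-43(M1) and mir-43(M3), which carry other replacements in miR-43, and ebax-1(tm2321) null-mutant animals with and without each of these alleles. Nothing in the labels says that replicates came from separate cultures, so p-values measure the spread between these libraries, which may be technical.

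A miRNA gene is transcribed as a hairpin precursor that is cut to a short duplex. 1 strand of it, the guide, is loaded into an Argonaute protein and directs repression of mRNAs that pair to its seed, whereas the other, the passenger (written with an asterisk), is mostly discarded, so its level is often read as a measure of how much duplex was made. EBAX-1 is the nematode ortholog of ZSWIM8, the substrate receptor of a ubiquitin ligase that degrades Argonaute and thereby exposes particular miRNAs to nucleases. The miR-43 replacements address which part of miR-43 that pathway reads, and the comparison with intact ebax-1 sets the levels of miR-43, its neighbors and other miRNAs in the edited line against those in wild type.

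The miR-42, miR-43 and miR-44 hairpins lie side by side on the plus strand of chromosome II. In WBcel235, mir-42 spans 11889811 to 11889905, mir-43 spans 11889910 to 11890007 and mir-44 spans 11890023 to 11890118, leaving 4 and 15 bases between neighbors. Each is annotated as a miRNA gene. mir-45, whose guide strand shares an entry with that of miR-44, lies on the minus strand of the same chromosome at 11880944 to 11881039, 8771 bases from mir-42.

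Total miRNA counts of the 6 libraries ranged from 6051391 to 16014208 (median 8404241), so that 5 CPM stood for 30.3 to 80.1 counts. The most counted strand took 16.8% to 28.3% of a library. The libraries carried the miR-43 form of their label: reads of miR-43 forms other than the carried one made up 0.0207%, 0.0180% and 0.141% of miR-43 guide reads in the 3 wild-type libraries and 1.38%, 1.15% and 2.36% in the 3 mir-43(M2) libraries. Wild-type libraries varied more among themselves than mir-43(M2) libraries did, with a median SD over strands of 0.386 against 0.157 on the log2 scale. Wild-type replicate 1 stood apart in miRNAs that rise late in larval life. Its let-7 level was 2322 CPM, below the 8724 and 12069 CPM of the other wild-type libraries and below the 7500, 11887 and 10326 CPM of mir-43(M2). In the time course of the same series, wild-type let-7 averaged 503 CPM in L3 and 12752 CPM in L4 (n = 2 each). Where leaving out that library changed a call, the value without it is given.

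Only strands of the miR-42 hairpin passed the threshold (edgeR quasi-likelihood test with Benjamini-Hochberg adjustment, adjusted p under 0.01). Of 219 strands tested, 3 (1.37%) passed: mir-42_g8t was higher in mir-43(M2), and the intact guide (mir-42) and the passenger strand of miR-42 were lower. Of these, mir-42_g8t and miR-42* met the 5 CPM minimum only through the strain in which each was high. miR-43 itself measured 2.33-fold higher, and the miR-44 guide overlapped between the strains. Neither passed that threshold. At an adjusted p under 0.05, 5 strands passed (2.28%), with miR-43 added on the higher side and miR-250 on the lower. At an unadjusted p under 0.05 there were 27 (12.3%). The median change over all strands was -0.01 on the log2 scale, and the plot of all strands by level and change shows how far the miR-42 strands lay from the rest.

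**Figure D1:**
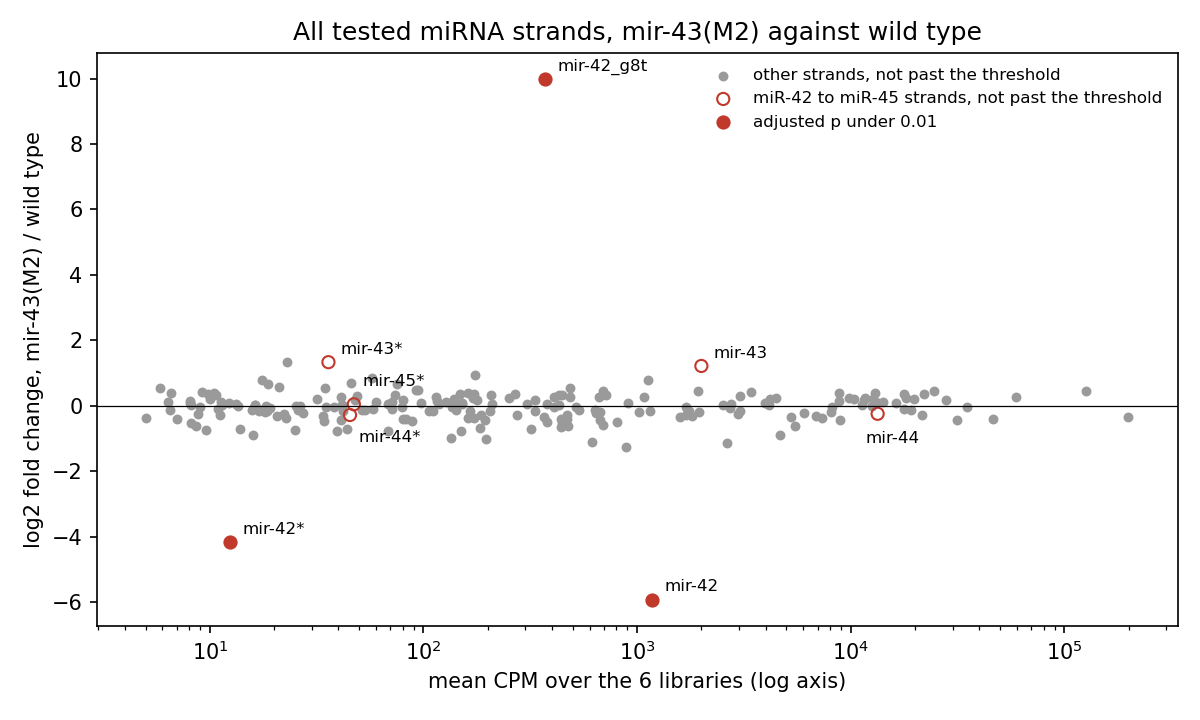
Log2 fold change of mir-43(M2) over wild type for each of 219 miRNA strands, against the mean CPM over the 6 libraries on a log axis. Filled red points passed the threshold, open red circles are the other strands of miR-42 to miR-45, and gray points are all other strands. mir-42_g8t lies at 9.98, miR-42* at -4.16 and miR-42 at -5.92, while strands outside the locus lie between -1.25 and 1.35.

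The miR-42 guide was counted in separate entries, intact mir-42 and mir-42_g8t. miR-42 belongs to the miR-35 family, which is abundant in embryos and required for embryonic development. mir-42_g8t is an altered form of miR-42 by its name, which neither the labels nor the methods explain. Its level was 0.331, 0.624 and 1.23 CPM in wild type, from 2, 10 and 9 counts, and 728, 772 and 729 CPM in mir-43(M2). The groups were far apart and the mir-43(M2) libraries were nearly equal. The change was 9.98 on the log2 scale (SE 1.09, adjusted p = 3.6e-06, edgeR), with a size that depends on the few wild-type counts. This entry was among the strands tested only because of its level in mir-43(M2).

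These entries divide the miR-42 guide reads of a library, and intact mir-42 took the opposite course. It stood at 1202, 2336 and 3393 CPM in wild type and at 17.9, 5.15 and 90.7 CPM in mir-43(M2), the highest mir-43(M2) library lying far below the lowest wild-type library. The change was -5.92 (SE 1.07, adjusted p = 0.0022, edgeR). With only the 6 libraries in the fit the adjusted p was 0.068, and it was 0.029 without mir-43(M2) replicate 1 and 0.011 without replicate 2. mir-42_g8t took 97.6% (95% Wilson interval 97.2% to 97.9%), 99.3% (99.1% to 99.5%) and 88.9% (88.2% to 89.7%) of all miR-42 guide reads in the mir-43(M2) libraries. In wild type it took 0.0275%, 0.0267% and 0.0363%. Such intervals cover counting error only.

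The lowest of these shares, in mir-43(M2) replicate 3, went with reads of another strain's form. That library held 761 intact mir-42 reads beside 538 reads of mir-43m1, the form carried by mir-43(M1) animals, a ratio of 1.41. In the mir-43(M1) libraries, where intact mir-42 and mir-43m1 are both carried, the ratio was 1.46, 1.40 and 1.68. The ratio in the other mir-43(M2) libraries was 1.17 and 2.88, from 129 and 16 mir-43m1 reads. The part of such reads in the intact mir-42 level of mir-43(M2) was not tested.

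With both forms summed, the miR-42 guide was 1203, 2336 and 3395 CPM in wild type (2311 ± 1096, SD, n = 3) and 746, 777 and 820 CPM in mir-43(M2) (781 ± 36.9, SD, n = 3). All mir-43(M2) libraries lay below all wild-type libraries. The summed guide differed by -1.53 (SE 0.53, adjusted p = 0.21, edgeR), which did not pass the threshold. Summing was chosen after the data were seen.

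The miR-42 passenger strand was lower too. Its level was 29.4, 24.8 and 16.7 CPM in wild type and 1.19, 1.34 and 1.43 CPM in mir-43(M2), the latter from 10, 12 and 12 counts. There was no overlap between the strains. The change was -4.16 (SE 0.39, adjusted p = 2.7e-06, edgeR). Reads were assigned by a match of their first 19 nt to the dictionary, so a passenger strand with a changed base there would not be counted under miR-42*. Whether mir-43(M2) carries such a change was not tested.

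**Figure D2:**
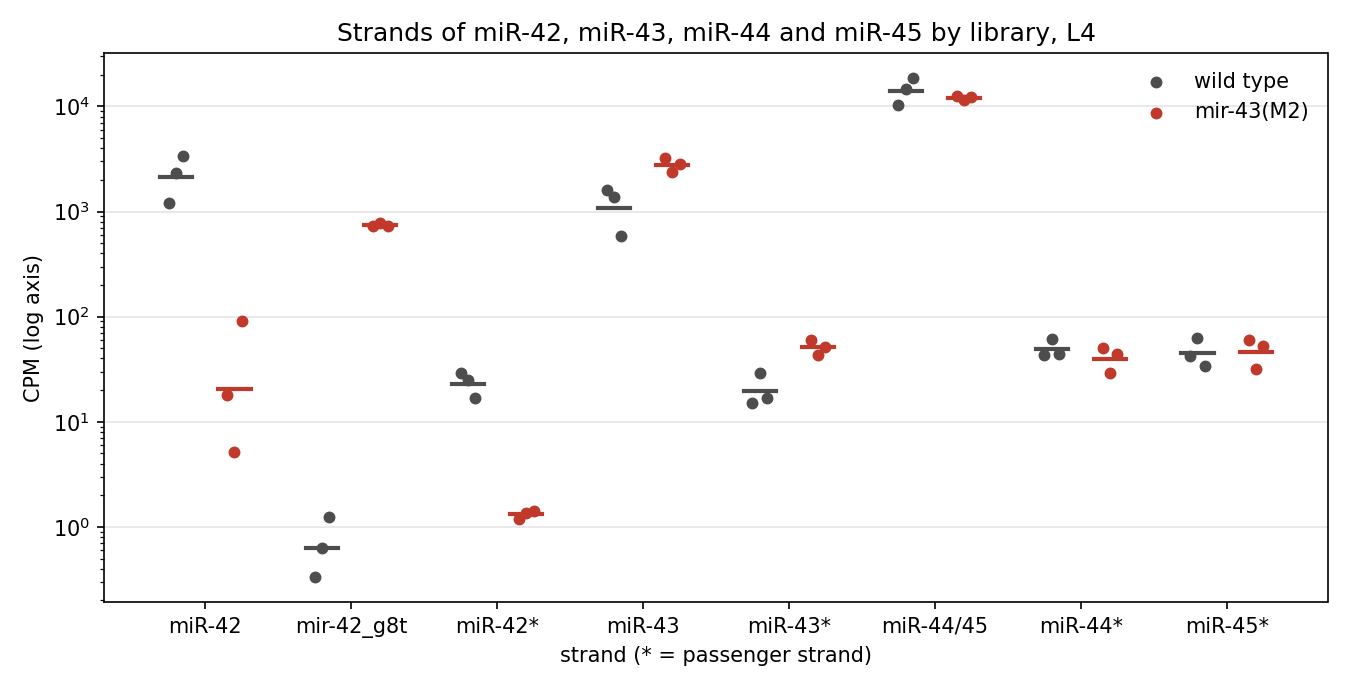
Level of each strand of miR-42, miR-43, miR-44 and miR-45 in the 3 wild-type and 3 mir-43(M2) libraries, in CPM on a log axis. Points are libraries and bars are geometric means. Intact miR-42 and miR-42* are low and mir-42_g8t is high in mir-43(M2), both miR-43 strands sit above wild type, and the miR-44 and miR-45 strands overlap.

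The miR-43 guide, which shares its seed with miR-2, miR-250 and miR-797, measured higher in the edited strain, by a margin that did not pass the threshold. It measured 1600, 1384 and 582 CPM in wild type (1189 ± 537, SD, n = 3) and 3203, 2386 and 2832 CPM in mir-43(M2) (2807 ± 409, SD, n = 3). All mir-43(M2) libraries lay above all wild-type libraries, and wild-type replicate 3 was the lowest. The change was 1.22 on the log2 scale (SE 0.30), or 2.33-fold with a 95% interval of 1.51 to 3.58. Its adjusted p was 0.034 (edgeR), short of the threshold. The call changed with the tool and the libraries: the adjusted p was 0.00077 by DESeq2, 0.0072 without wild-type replicate 1 (edgeR, log2 change 1.54) and 0.44 with only the 6 libraries in the fit (edgeR).

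The miR-43 passenger strand moved by about as much as the guide. It measured 15.0, 29.1 and 17.0 CPM in wild type (20.4 ± 7.62, SD, n = 3) and 59.8, 43.2 and 51.3 CPM in mir-43(M2) (51.4 ± 8.29, SD, n = 3). Again the groups did not overlap. The change was 1.34 (SE 1.06, adjusted p = 0.59, edgeR), and the passenger entry of the mir-43(M1) allele, part of the same fit, was at 0 in 4 of its 6 libraries. Without those 6 libraries, an alternative chosen after the data were seen, the change was 1.34 with an SE of 0.27 and an adjusted p of 0.013 (edgeR), still short of the threshold. The guide then had an adjusted p of 0.081 (edgeR).

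The guide-to-passenger ratio within a library does not depend on scaling between libraries. It was 106, 47.6 and 34.3 in wild type and 53.6, 55.2 and 55.2 in mir-43(M2), whose libraries were nearly identical and lay between wild-type replicates 1 and 2. On the log2 scale, with 1 CPM added to each strand, the ratio differed by 0.02 (SE 0.76, 95% interval -1.56 to 1.60, adjusted p = 0.99, limma). With only the 6 libraries in the fit, the difference was the same and its SE was 0.40 (adjusted p = 0.99, limma). Among the 84 hairpins with both strands tested, the ratio passed the threshold for 0 (limma) and 15 had an unadjusted p under 0.05.

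miR-44, the third hairpin of the group, gave no call. Its guide, counted together with miR-45, was 10348, 14641 and 18658 CPM in wild type and 12678, 11437 and 12353 CPM in mir-43(M2). The mir-43(M2) values fell inside the wild-type range, and the difference was -0.24 (SE 0.17, 95% interval -0.60 to 0.12, adjusted p = 0.57, edgeR). miR-44* was 43.6, 61.6 and 43.97 CPM in wild type and 49.8, 28.9 and 43.96 CPM in mir-43(M2). miR-45*, made from the separate hairpin, was 42.5, 63.1 and 33.6 CPM against 59.4, 31.8 and 52.9 CPM. Both passenger strands overlapped between the strains.

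Ratios to the miR-44 entries within each library set miR-43 and miR-42 against a neighbor. The miR-44 guide entry also counts miR-45, so only the passenger ratio uses a strand of the mir-44 hairpin alone. For these ratios 3 libraries against 3 cannot give an exact two-sided permutation p below 0.10, and 6 ratios were compared. The miR-43 guide per miR-44 guide was 0.155, 0.0946 and 0.0312 in wild type and 0.253, 0.209 and 0.229 in mir-43(M2), without overlap and 2.98-fold higher by geometric means (exact permutation p = 0.10, adjusted p = 0.15). The miR-43 passenger per miR-44 passenger was 0.345, 0.473 and 0.386 in wild type and 1.2005, 1.496 and 1.17 in mir-43(M2), which is 3.22-fold higher (exact permutation p = 0.10, adjusted p = 0.15). The wild-type libraries lay close together on the passenger ratio and far apart on the guide ratio. The summed miR-42 guide per miR-44 guide went the other way, from 0.116, 0.160 and 0.182 in wild type to 0.0589, 0.0680 and 0.0663 in mir-43(M2), 0.428 times the wild-type value (exact permutation p = 0.10, adjusted p = 0.15). Within single libraries miR-43 was high and miR-42 low in mir-43(M2) relative to the miR-44 entries. For miR-42 that entry was the guide shared with miR-45. Each exact permutation p was the smallest this design allows, which shows only that the strains did not overlap, and none passed the threshold. The miR-44 passenger per miR-45 passenger, a ratio of 2 strands whose guides share an entry, was 1.03, 0.975 and 1.31 against 0.838, 0.908 and 0.831, 0.784 times the wild-type value (exact permutation p = 0.10, adjusted p = 0.15).

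**Figure D3:**
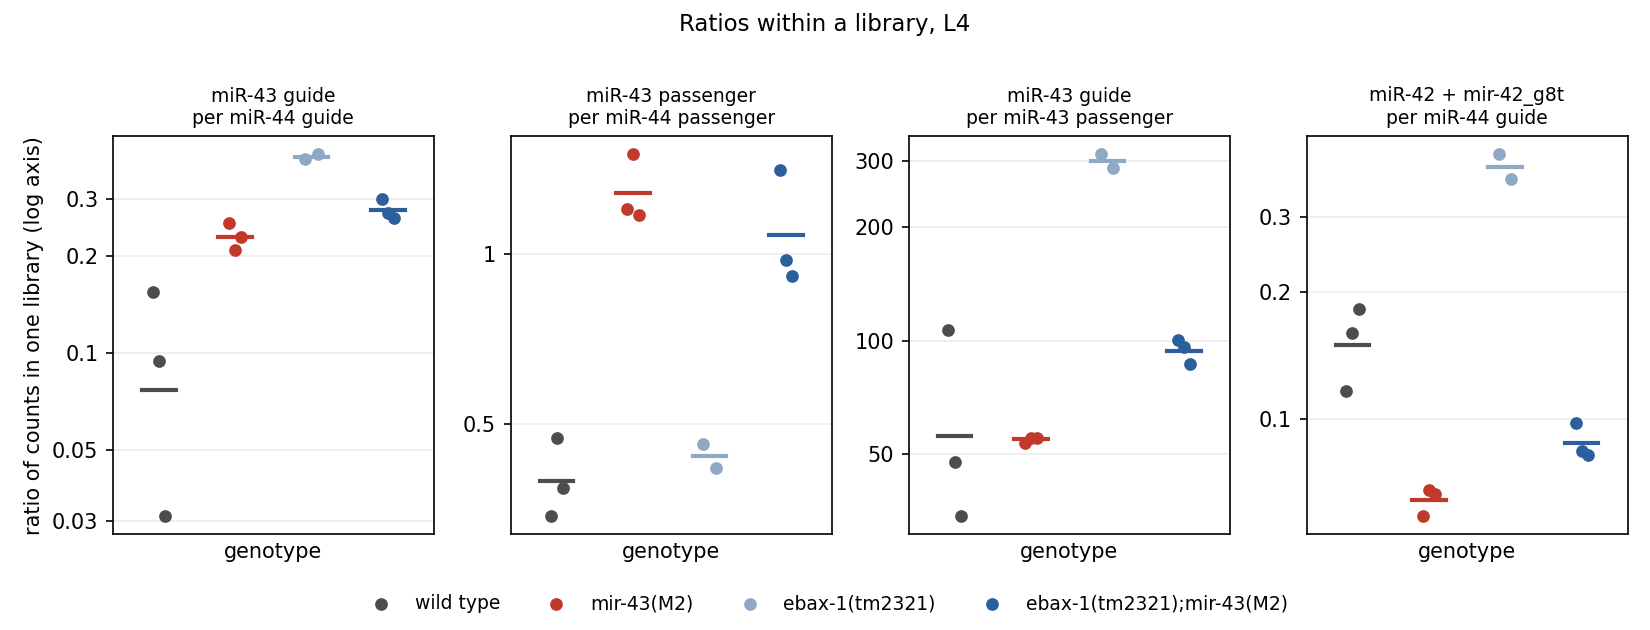
Ratios of counts within one library, on log axes, for wild type (n = 3), mir-43(M2) (n = 3), ebax-1(tm2321) (n = 2) and ebax-1(tm2321);mir-43(M2) (n = 3), with bars at geometric means. The miR-43 passenger per miR-44 passenger lies between 0.345 and 0.473 in the strains with unedited miR-43 and between 0.914 and 1.496 in those with the M2 allele. The miR-43 guide per passenger spreads from 34.3 to 106 in wild type and lies at 53.6 to 55.2 in mir-43(M2).

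The wild-type and M2 forms of the miR-43 strands differ in sequence over the replaced part, and small-RNA ligation and amplification can favor some sequences. A difference in capture therefore cannot be told apart from a difference in level for miR-43, miR-43*, mir-42_g8t and the summed miR-42 guide. For miR-42*, whether the sequence is the same in both strains was not tested. miR-44, miR-45*, miR-2 and the strands outside the locus were compared on the same sequence.

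Other miRNAs with the seed of miR-43 had smaller differences. miR-2, the most abundant, was 25609, 19284 and 14657 CPM in wild type and 19972, 16877 and 18746 CPM in mir-43(M2), with overlap and a difference of -0.11 (SE 0.16, adjusted p = 0.81, edgeR). miR-250 was 7078, 5725 and 6920 CPM in wild type and 3687, 4781 and 4588 CPM in mir-43(M2). Every mir-43(M2) library was below every wild-type library for miR-250, and the difference was -0.60 (SE 0.15, adjusted p = 0.041, edgeR; adjusted p = 0.0099, DESeq2). By DESeq2 it thus passed the threshold, the only strand outside the locus that did. In the fits without 1 of the 6 libraries its adjusted p ranged from 0.023 to 0.27 (edgeR). With only the 6 libraries in the fit it was 0.44, and 0.62 with a replicate block as well (edgeR).

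The remaining strands of this seed family gave no call. miR-250* was 174, 176 and 174 CPM against 165, 168 and 133 CPM, without overlap but with a difference of only -0.16 (SE 0.17, adjusted p = 0.67, edgeR). miR-797 was 457, 511 and 317 CPM in wild type and 570, 262 and 469 CPM in mir-43(M2), with overlap and a difference of 0.02 (SE 0.40). miR-797* was 28.9, 19.3 and 13.6 CPM against 7.01, 14.8 and 12.4 CPM. The groups overlapped for it as well (difference -0.88, SE 0.36, adjusted p = 0.26, edgeR).

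The miR-2 passenger strand was the lowest of the family relative to wild type. It was 397, 212 and 168 CPM in wild type and 118, 124 and 153 CPM in mir-43(M2), without overlap, and wild-type replicate 1 lay far above the other 5 libraries. The difference was -1.001 (SE 0.27, adjusted p = 0.058, edgeR). It depended on which wild-type library was kept, being -0.49 (adjusted p = 0.62, edgeR) without wild-type replicate 1 and -1.26 (adjusted p = 0.0050, edgeR) without wild-type replicate 3.

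Outside the 8 strands of miR-42 to miR-45, 211 strands were tested and 0 passed the threshold by edgeR, with 23 at an unadjusted p under 0.05 and 1 passed by DESeq2. The median size of their log2 differences was 0.251, and 5 strands differed by more than 1 on the log2 scale. Values of the 3 mir-43(M2) libraries lay all above those of wild type for 12 of the 211 and all below for 22, where all 219 strands gave 6.85% above and 11% below.

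Most members of the miR-35 family sat at low L4 levels in both strains. Of its 8 members tested, miR-42 alone passed the threshold, by its intact entry (1 of 8, beside 1.37% of all strands). With mir-42_g8t reads added, miR-42 did not pass (-1.53, adjusted p = 0.21, edgeR). The family's median change, with intact mir-42, was 0.01 beside -0.01 over all strands. miR-36, the most abundant of the others, was 494, 417 and 667 CPM in wild type and 426, 590 and 507 CPM in mir-43(M2). miR-38 was 717, 355 and 461 CPM against 368, 481 and 435 CPM, and miR-40 was 288, 365 and 672 CPM against 441, 630 and 502 CPM. The groups overlapped for all 3. The 7 other members differed by -0.72 to 0.27.

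Of the miRNAs that the study's text names as sensitive to EBAX-1, miR-65 was 10684, 12957 and 11583 CPM in wild type and 14091, 13340 and 13492 CPM in mir-43(M2). The groups did not overlap, and the difference was 0.22 (SE 0.12, adjusted p = 0.36, edgeR). miR-64 was 17039, 15939 and 14131 CPM against 17749, 15781 and 16602 CPM, with overlap. miR-71, which acts in lifespan regulation, was 7758, 16421 and 9515 CPM against 14032, 8542 and 11601 CPM, with overlap and a difference of 0.03 (SE 0.27).

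miR-61 and miR-247 share the seed of miR-44 and lay slightly below wild type in the fit with it, the 3 having a median of -0.27 and 0 passing (edgeR, lowest adjusted p = 0.52). miR-61 was 1519, 1769 and 2323 CPM in wild type and 1616, 1390 and 1592 CPM in mir-43(M2). miR-247 was 305, 190 and 115 CPM against 238, 122 and 145 CPM. Both overlapped between the strains.

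Of 11 miRNAs of developmental timing, 0 passed the threshold (edgeR, lowest adjusted p = 0.15) and the median change was -0.01. lin-4, which acts first in larval timing, was 42195, 27084 and 38720 CPM in wild type and 24924, 29025 and 26807 CPM in mir-43(M2). miR-48, a let-7 relative of late larval stages, was 14609, 22195 and 18528 CPM against 20126, 21608 and 21529 CPM. The let-7 levels given above also overlapped between the strains, with a difference of 0.39 (SE 0.43, adjusted p = 0.70, edgeR). mir-84, another let-7 relative, was 1375, 3737 and 3659 CPM in wild type and 3578, 3938 and 4190 CPM in mir-43(M2), wild-type replicate 1 being the lowest.

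Further members of this list spread widely in wild type. miR-235, which holds neural and blast cells quiescent in starved L1 larvae, was 4833, 3967 and 2017 CPM in wild type and 2214, 1136 and 1619 CPM in mir-43(M2), a difference of -1.14 (SE 0.37, adjusted p = 0.15, edgeR). miR-85 was 118, 382 and 2010 CPM against 792, 2048 and 1366 CPM. let-7* was 20.0, 20.7 and 329 CPM against 158, 299 and 224 CPM. The strains overlapped for each of these, and the wild-type libraries were farther apart than those of mir-43(M2). miR-85 and miR-235 were named after their values were seen.

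**Figure D4:**
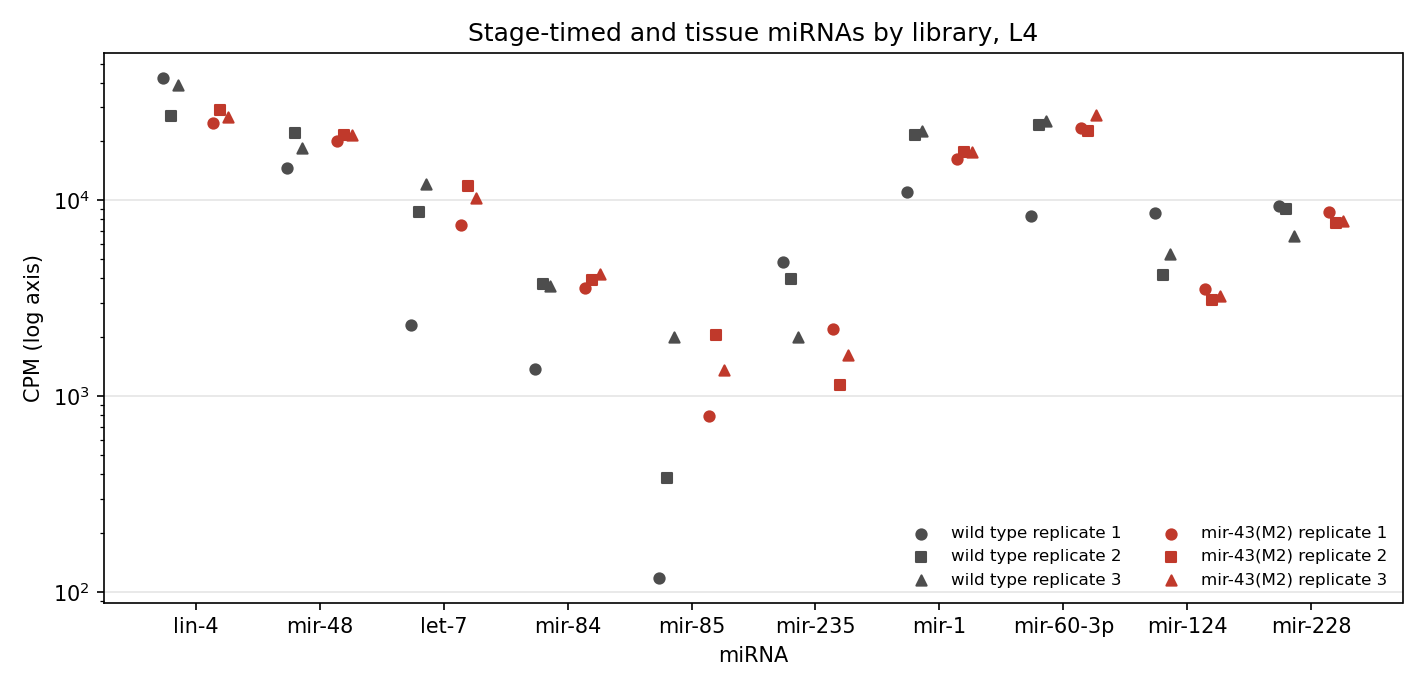
Level of stage-timed miRNAs (lin-4 to mir-235) and tissue miRNAs (mir-1 to mir-228) in each library, in CPM on a log axis, with the marker shape giving the replicate. Wild-type replicate 1 (gray circles) is the lowest for let-7 at 2322 CPM, mir-85 at 118 CPM and mir-60 at 8293 CPM and the highest for mir-124 at 8599 CPM, where the mir-43(M2) libraries lie between 3104 and 3523 CPM.

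Tissue miRNAs were detected in every library. Muscle miR-1 was 11061, 21574 and 22647 CPM in wild type and 16192, 17761 and 17704 CPM in mir-43(M2), and intestinal miR-60-3p was 8293, 24353 and 25540 CPM against 23317, 22514 and 27449 CPM. Glial miR-228 was 9312, 9049 and 6567 CPM against 8755, 7639 and 7824 CPM. The strains overlapped for each, wild-type replicate 1 being the lowest for miR-1 and miR-60-3p. Neuronal miR-124 was 8599, 4163 and 5305 CPM in wild type and 3523, 3104 and 3251 CPM in mir-43(M2), without overlap (difference -0.89, SE 0.29, adjusted p = 0.15, edgeR). Of 4 neuronal strands tested, 3 had all mir-43(M2) libraries below all wild-type libraries, beside 11% of all strands, and 0 passed the threshold (edgeR, lowest adjusted p = 0.15). The summed level of the 4, most of it miR-124, was 9374, 4674 and 5876 CPM in wild type and 3992, 3482 and 3642 CPM in mir-43(M2). The strand that overlapped was lsy-6, at 15.7 to 21.9 CPM. In whole animals, fewer cells of a type and less miRNA per cell cannot be told apart, and the part of stage or cell makeup in these values was not tested.

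The most abundant families held no strand past the threshold. miR-58 was 283322, 168180 and 213441 CPM in wild type and 167860, 184998 and 177058 CPM in mir-43(M2), with overlap, and 0 of 6 in its family passed (edgeR, median change 0.19). miR-52, of the miR-51 family that is required in embryos, was 89192, 123047 and 106921 CPM against 160597, 136698 and 138340 CPM. The groups did not overlap for miR-52, and the difference was 0.46 (SE 0.14, adjusted p = 0.10, edgeR), with 0 of 6 in the family passing and a median change of 0.28. miR-54, of the same family, was 15528, 24302 and 22501 CPM against 28061, 27717 and 28784 CPM, also without overlap (difference 0.45, SE 0.14, adjusted p = 0.12, edgeR). The family's other highly expressed members, miR-55 and miR-56, overlapped (differences 0.17 and -0.04).

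Lists of other abundant or regulated miRNAs also held 0 strands past the threshold by edgeR. The 5 strands of miR-63 to miR-66 and miR-229 had a median change of 0.11 and a lowest adjusted p of 0.34. miR-66, the most abundant of them, was 14458, 18629 and 16532 CPM in wild type and 19638, 19183 and 20073 CPM in mir-43(M2), without overlap (difference 0.25, SE 0.13). The 3 strands of miR-72 to miR-74 had a median of -0.14, and miR-72 was 25996, 23922 and 20444 CPM against 20322, 19189 and 19105 CPM, also without overlap (difference -0.27, SE 0.16). The 7 strands linked to ageing and stress had a median of 0.09 and a lowest adjusted p of 0.21, for miR-238 at 9251, 11527 and 11356 CPM against 12812, 12433 and 12400 CPM.

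The M2 allele was measured again in an ebax-1(tm2321) background, in 5 libraries other than the 6 set against each other above. All of them share 1 estimate of the spread in the fit, so the comparisons are not fully separate. There 3 of 219 strands passed (1.37%), the same 3 in the same directions (edgeR): mir-42_g8t by 10.12 (SE 1.29, adjusted p = 2.3e-05), miR-42 by -11.40 (SE 1.38, adjusted p = 1.5e-05) and miR-42* by -4.13 (SE 0.43, adjusted p = 8.7e-06). Intact mir-42 was 7025 and 6875 CPM in ebax-1(tm2321) and 4.32, 2.80 and 0.168 CPM in ebax-1(tm2321);mir-43(M2). mir-42_g8t was 0.893 and 1.81 CPM in ebax-1(tm2321) and 1662, 1466 and 1408 CPM with the allele. With the allele it took 99.7%, 99.8% and 99.99% of miR-42 guide reads. Neither entry overlapped between genotypes. Of the 23 strands outside the locus at an unadjusted p under 0.05 with intact ebax-1, 0 reached it in the ebax-1(tm2321) background and 13 had the same sign. The lowest adjusted p outside the locus there was 0.86 (edgeR), 5 of 211 strands having an unadjusted p under 0.05 and 0 passing by DESeq2. Across the 211 strands the changes in the 2 backgrounds had a Pearson correlation of 0.348, which is across strands of the same libraries, not replicates.

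The 2 miR-43 strands are given for the ebax-1(tm2321) background as well, since the guide lay on opposite sides of its controls in the 2 backgrounds and the passenger did not. miR-43* was 21.4 and 26.7 CPM in ebax-1(tm2321) and 51.3, 49.4 and 52.2 CPM with the allele, above as in the comparison with intact ebax-1. Per miR-44*, the M2 allele was 2.45-fold higher (exact permutation p = 0.10, adjusted p = 0.15, the smallest that 3 against 2 allows being 0.10). The miR-43 guide was 6652 and 7649 CPM in ebax-1(tm2321) and 5129, 4742 and 4510 CPM with the allele, below instead of above (difference -0.60, SE 0.32, adjusted p = 0.86, edgeR). The difference between the backgrounds was -1.82 (SE 0.43, adjusted p = 0.11, edgeR), which did not pass the threshold, whereas by DESeq2 it did (-1.88, SE 0.44, adjusted p = 0.0043). Over all strands, 0 passed for this difference by edgeR, with 18 at an unadjusted p under 0.05, and 1 by DESeq2, miR-43. The guide per passenger was 311 and 286 in ebax-1(tm2321) and 100, 95.9 and 86.4 with the allele, beside the wild-type and mir-43(M2) values given above.

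**Figure D5:**
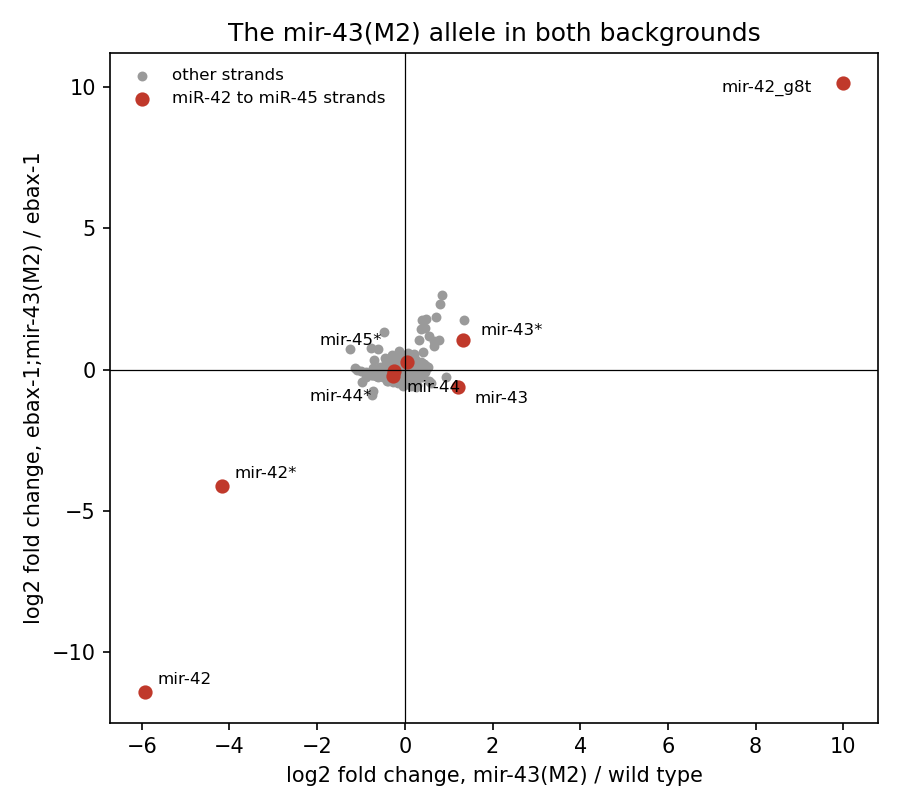
Log2 fold change of the M2 allele with intact ebax-1 (horizontal) and in the ebax-1(tm2321) background (vertical) for 219 strands, red for the strands of miR-42 to miR-45. The 3 strands of the miR-42 hairpin lie far from the origin in both directions of measurement, and miR-43 lies at 1.22 horizontally and -0.60 vertically.

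Direct comparisons set mir-43(M2) against the other strains with a Cas9-edited miR-43. mir-43(M3) was isolated in a dpy-10 background and backcrossed, as mir-43(M2) was. mir-43(M1) came from a background heterozygous for the allele of the Rol phenotype, and the methods describe no backcross for it. Against mir-43(M1), 3 of 219 strands passed (1.37%), mir-42_g8t at 8.11, intact mir-42 at -6.05 and miR-42* at -3.88 (edgeR, highest adjusted p of the 3 = 0.0018). mir-43(M1) animals held 2472, 2486 and 2552 CPM of intact mir-42, within the wild-type range. Against mir-43(M3), 2 strands passed (0.913%), mir-42_g8t at 7.19 (SE 0.94, adjusted p = 9.9e-05) and miR-42* at 3.66 (SE 0.68, adjusted p = 0.0063), both higher in mir-43(M2) (edgeR). miR-42* had 10, 12 and 12 counts in mir-43(M2) and 0, 0 and 2 in mir-43(M3). Both strains thus lay below the 5 CPM minimum for it, and the size of its change depends on these few counts. mir-43(M3) animals held little of either form, with 1.36, 10.9 and 29.4 CPM of intact mir-42 and 1.85, 11.2 and 2.00 CPM of mir-42_g8t. At these low levels mir-42_g8t was the larger entry in 2 of the 3 mir-43(M3) libraries, and its level there lay far below that in mir-43(M2). Its counts there were 15, 92 and 13, beside 194, 287 and 57 reads of mir-43m2, the form carried by mir-43(M2) animals. The part of such reads in the mir-42_g8t level of mir-43(M3) was not tested.

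The miR-43 guide did not pass in either direct comparison. It was 1697, 1772 and 1523 CPM in mir-43(M1) and 5700, 6037 and 5607 CPM in mir-43(M3), which left mir-43(M2) between them (edgeR, 0.77, adjusted p = 0.72, and -1.07, adjusted p = 0.13). None of these libraries overlapped between the 3 strains. Side by side, and with the same wild-type libraries as controls, the guide differed from wild type by 0.45 in mir-43(M1) (SE 0.29, adjusted p = 0.59, edgeR), by 1.22 in mir-43(M2) and by 2.29 in mir-43(M3) (SE 0.31, adjusted p = 6.2e-05, edgeR). miR-44 differed from wild type by -0.29, -0.24 and 0.07 in the same order, none past the threshold.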

How the data were processed

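Small RNAs of whole L4 larvae were sequenced from 2 to 10 µg of total RNA (read 1 of paired 100-nt runs). The deposited miRNA values are raw counts: the authors trimmed reads with cutadapt and fastx_trimmer, kept those with every base at a quality of 30 or more, matched the first 19 nt to a curated miRNA dictionary and left out spike-in counts, so levels are relative to all miRNA reads. Submitters' processing notes name WBcel235. Versions are not given in the sources used here.

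The miR-43 entry that each strain carries was used as 1 entry. Strands with a mean of at least 5 CPM over the 6 libraries were tested with edgeR 4.0.16 (TMM scaling, quasi-likelihood F-test) on all 23 libraries of the experiment in 8 groups, with Benjamini-Hochberg adjustment over 219 strands, and ratios with limma 3.58.1 (pseudocount 1 CPM). Tests were two-sided. DESeq2 1.42.0 was an alternative. Fits were tested on data simulated for 211 strands. There edgeR on the 23 libraries passed 8 of 10 strands raised 4-fold, with 0 false calls. It passed only 2 of 10 raised 2-fold and 3 of 10 lowered 2-fold, so changes of that size can be missed. Each strand was simulated with the same spread in every group, whereas wild-type libraries varied more than mir-43(M2) libraries. The rates of passed and false calls may therefore differ in the measured data. Named strands were all of the locus and of the miR-2 seed family, those past the threshold without overlap, and the 4 most abundant of each list. Members and lists were chosen with earlier results of these data known. A list of EBAX-1-sensitive miRNAs drawn up for this work differed from those the study names and is not reported. piRNA counts were not used here.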

Additional observations from a re-analysis of the deposited data

Results flagged for a closer look

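For 4 strands, all libraries with the M2 allele lay on one side of their controls with intact ebax-1 and on the other side in the ebax-1(tm2321) background. For miR-43 the change in ebax-1(tm2321) minus that with intact ebax-1 was -1.82 on the log2 scale (SE 0.43, adjusted p = 0.11, edgeR). The same difference was 0.46 for mir-79 (adjusted p = 0.59), 0.32 for mir-250* (adjusted p = 0.80) and 0.22 for mir-74 (adjusted p = 0.80, all edgeR), none past the threshold. mir-79 was 65181, 42789 and 48614 CPM in wild type and 38263, 39778 and 42015 CPM in mir-43(M2).

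Reads of miR-43 forms that the strain does not carry were present in the mir-43(M2) libraries. mir-43m1 had 129, 16 and 538 reads in replicates 1 to 3, and mir-43m3 had 247, 205 and 36 reads, where the wild-type libraries held 0 to 4 of either. The source of these reads was not tested.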

How the results depend on the processing

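Against wild type, the strand counted higher (1) became 2 with DESeq2 and at an adjusted p under 0.05, in both by miR-43, and 0 with mir-42 and mir-42_g8t summed. The 2 strands counted lower became 3 with DESeq2 and at an adjusted p under 0.05, in both by miR-250. They became 1 with a minimum of 20 CPM, with only the 6 libraries, and with the 6 libraries and a replicate block. The same held with the summed miR-42 and without the mir-43(M1) libraries. Leaving out 1 replicate gave 1 to 2 higher and 1 to 3 lower. For mir-43(M2) against mir-43(M3) the 2 strands became 1 with DESeq2, with a minimum of 20 CPM and with the replicate block, and 1 to 2 without 1 replicate. In the ebax-1(tm2321) background the 2 lower strands became 1 with a minimum of 20 CPM, which removes miR-42* from the table. The difference between backgrounds, 0 strands, became 1 with DESeq2. The miR-43 guide changed by 1.28 with DESeq2 and by 0.87 to 1.54 without 1 replicate. The miR-42 guide changed by -5.93 with only the 6 libraries, by -6.61 with their replicate block, by -1.53 when summed, and by -7.58 to -5.40 without 1 replicate. The guide-to-passenger ratio of miR-43, near 0, was -0.0060 with a pseudocount of 0.5 CPM and -0.34 to 0.47 without 1 replicate, below 0 without wild-type replicate 2 or 3. mir-42_g8t (13 alternatives) and miR-42* (12) kept their call in each, and both miR-44 strands stayed without one in 13 each.

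Replicate numbers did not consistently pair wild-type with mir-43(M2) libraries: same-numbered ones had correlations of 0.290, -0.345 and 0.240 between their deviations from the group means. With mir-43(M2), same-numbered libraries of mir-43(M1) had 0.459, 0.0619 and 0.511, and differently numbered ones -0.468 to 0.0290. For mir-43(M3) these were 0.541, 0.0016 and 0.341, and -0.662 to 0.270. The main fit of those direct comparisons had no replicate block, so shared variation by replicate number was not modeled there. With the replicate block the 6 libraries gave 2 strands past the threshold, as they did without it. Where causes are not stated above, the cause was not tested. Spread among the wild-type libraries limits what a 2-fold change can show, and the 10 to 12 counts of miR-42* per mir-43(M2) library limit its fold change.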
